A study of Mus musculus with 16 samples.

Results

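The genes that write, copy and remove DNA methylation in the mouse were examined for their own methylation: Dnmt1, Uhrf1, Dnmt3a, Dnmt3b, Dnmt3l, Tet1, Tet2, Tet3 and Tdg. They were chosen by name as the DNA methyltransferases, their cofactors, the TET dioxygenases and the glycosylase that acts after them, and are 9 of 20807 protein-coding autosomal genes. Their cytosines were read by whole-genome bisulphite sequencing in 16 libraries from the spleens of C57BL/6J mice aged 6 to 8 weeks, for which the labels give no genetic change or treatment. The 8 B cell libraries came from CD43- resting B cells and the 8 T cell libraries from CD4+ CD62L+ naive T cells, both sorted with magnetic beads. Each cell type had 4 BS and 4 oxBS libraries, and each of these sets held 2 libraries from male and 2 from female mice. Bisulphite treatment alone (BS) reads 5-methylcytosine (5mC) and 5-hydroxymethylcytosine (5hmC) together as methylated, whereas prior oxidation (oxBS) leaves only 5mC to be read. The cells of several animals were pooled, and a portion of each DNA sample was oxidised, so a BS and an oxBS library may share their DNA and the 8 libraries of a cell type may not be 8 independent samples. The labels do not say which libraries those are.

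DNMT1 copies methylation to the daughter strand after replication, and UHRF1 guides it to hemimethylated CpGs. DNMT3A and DNMT3B place new methylation, and DNMT3L is a catalytically inactive partner of both that is known mainly from germ cells and early embryos. The TET enzymes oxidise 5mC to 5hmC and further forms, which TDG removes so that base excision repair can restore an unmodified cytosine. In lymphocytes TET2 and TET3 are known for their part in demethylating enhancers, and DNMT3A for its part in silencing genes as cells differentiate. CpG-rich promoters of active genes usually lack methylation and the bodies of genes usually carry it.

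Each library held between 118868248 and 164440353 autosomal CpG calls, that is 5.83 to 8.07 calls per CpG, and covered 95.04 to 96.1% of autosomal CpGs. The level over all autosomal CpGs was 79.4 to 80.7% in the B cell BS libraries, 79.8 to 81.5% in B cell oxBS, 79.4 to 79.6% in T cell BS and 78.4 to 78.9% in T cell oxBS. Start-site windows of the chosen markers followed the cell labels: 17 of 24 windows of 6 T cell genes (Cd3d, Cd3e, Cd3g, Cd4, Lck, Cd28) were called lower in T cells and none higher, by the rule for windows given below. Of 15 windows of the B cell genes Cd79a, Cd79b, Ms4a1, Pax5 and Blk, 6 were called lower in B cells, in 4 of the 5 genes, and none higher. The Pax5 windows were not called, and its gene body was higher in B cells, at 72.5% ± 2.27 against 69.1% ± 0.710 (quasi-binomial adjusted p = 0.00852).

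Each gene was cut into tiles of 500 bp from 5 kb upstream of its start to its end, which gave 1183 tiles. Of these, 885 held at least 3 CpGs and 20 calls in at least 5 libraries of each cell type and were tested, 196 held fewer CpGs and 102 too few calls. The level of a tile is the percentage of its calls that were methylated, and distances are counted from the gene start along the gene (builds mm10 and GENCODE vM21). A tile or window was called between cell types at an adjusted p under 0.05 where its pooled levels also differed by 20 percentage points or more. Pooled levels take the calls of the libraries of a cell type together, whereas means and SDs are over libraries. The p came from a quasi-binomial model with sex and assay as covariates, adjusted by Benjamini-Hochberg over all genes.

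At the start sites of the 9 genes no window was called between B and T cells, and most windows were at the low or the high end of the scale in both. Of the 80 windows of 1 kb on either side of an annotated transcription start site (TSS), 79 were tested; 34 were at 20% or less in both cell types and 39 at 80% or more in both. None of the 79 windows was called (1 when the B cell library 11 was left out), against 1.82% of all 88975 windows tested. For 79 windows a count of 0 is close to that share, so it is not particular to these genes. Without the limit of 20 points, 16 windows were higher in B and 2 in T cells in the quasi-binomial test (26 at an unadjusted p under 0.05), against 15.8% of all windows at an adjusted p under 0.05 (26670 at an unadjusted p under 0.05). TSSs within 1 kb of each other share calls, so the windows below are the most CpG-rich of each of 42 such groups. Of these 42 windows, 10 were at 20% or less in both cell types and 28 at 80% or more in both. Without the limit of 20 points, 8 of them were higher in B and 1 in T cells in the quasi-binomial test.

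Both maintenance genes had a main promoter below 5% in both cell types. At Uhrf1 the window of 123 CpGs was at 1.82% ± 0.518 in B and 1.71% ± 0.606 in T cells (SD, n = 8 libraries in each). At Dnmt1 the window 7.28 kb into the annotated gene, with 88 CpGs, was at 4.82% ± 1.22 and 3.51% ± 1.55, whereas the window of the first annotated TSS, with 28 CpGs, was at 90.1% ± 1.48 and 89.2% ± 2.46. The libraries of the cell types overlapped in all of these windows.

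The de novo genes divided into start-site windows of low and of high methylation. Dnmt3a was at 0.6002% ± 0.4596 in B and 0.151% ± 0.110 in T cells over the 268 CpGs of its first promoter, and at 4.21% ± 1.75 and 2.93% ± 0.995 over the 74 CpGs of the promoter 85.7 kb into the gene. Dnmt3b was at 8.95% ± 0.695 and 8.95% ± 4.88 over 139 CpGs. Dnmt3l stood apart, with high levels over all its windows, though the 300 bases of its first RefSeq promoter were only partly methylated, as given below. A window of 34 CpGs at its start was at 80.7% ± 4.26 in B and 82.2% ± 1.40 in T cells, and that of 29 CpGs 12.9 kb into the gene was at 86.7% ± 2.65 and 92.3% ± 1.71. In the latter B minus T was -5.51 points (quasi-binomial adjusted p = 0.00247; exact permutation test, two-sided, p = 0.000466), with overlapping ranges.

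The sequences of a promoter with little methylation and of a partly methylated promoter are given because they differ in CpG content. The Uhrf1 promoter (RefSeq, GRCm38.p6, chr17:56304063-56304362, plus strand) holds 33 CpGs, and the Dnmt3l promoter (chr10:78042037-78042336, plus strand) holds 6, shown here in capitals.
Uhrf1 promoter: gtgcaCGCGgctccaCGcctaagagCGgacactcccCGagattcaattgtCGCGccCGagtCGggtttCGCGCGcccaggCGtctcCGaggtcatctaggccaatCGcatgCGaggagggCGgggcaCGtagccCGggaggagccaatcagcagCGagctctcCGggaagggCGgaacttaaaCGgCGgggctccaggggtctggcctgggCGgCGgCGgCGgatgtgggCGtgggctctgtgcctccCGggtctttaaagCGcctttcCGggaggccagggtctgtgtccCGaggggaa
Dnmt3l promoter: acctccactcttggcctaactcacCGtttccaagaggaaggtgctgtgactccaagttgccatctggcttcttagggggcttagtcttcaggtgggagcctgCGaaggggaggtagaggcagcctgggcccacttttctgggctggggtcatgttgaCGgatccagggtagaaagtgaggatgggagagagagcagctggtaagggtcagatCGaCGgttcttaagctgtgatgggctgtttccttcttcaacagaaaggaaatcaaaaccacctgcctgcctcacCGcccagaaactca
Over these 300 bases Uhrf1 was methylated in 0.119% of 2527 B cell calls and 0.0654% of 3060 T cell calls, and Dnmt3l in 42.6% of 401 and 45.8% of 424. In the Dnmt3l promoter the first CpGs were highly methylated and the later ones little, in both cell types. The CpG at base 103 was at 91.6% of 71 B cell calls and 93.3% of 75 T cell calls, and that at base 216 was at 1.49% of 67 and 1.47% of 68. Promoter sequences of all 9 genes were found in the RefSeq table, 16 in all. The other Dnmt3l promoters among them were at 72.7 and 95.33% in the pooled B cell calls and at 76.6 and 95.35% in the T cell calls.

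Among the erasers, Tet2 and the CpG-rich promoter of Tet3 were below 1% in both cell types. Tet2 was at 0.630% ± 0.498 in B and 0.696% ± 0.329 in T cells over 142 CpGs, Tet3 at 0.472% ± 0.295 and 0.796% ± 0.614 over 174 CpGs 2.69 kb into the gene, and Tdg at 5.75% ± 2.41 and 4.64% ± 1.26 over 109 CpGs. Tet1 was at 8.41% ± 1.61 and 7.63% ± 1.41 over the 87 CpGs of its promoter 21.7 kb into the gene, while the first annotated TSS was at 86.1% ± 3.23 and 90.4% ± 2.05.

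The largest differences at start sites were in internal windows of Tet1 and Tet3. The Tet1 window 16.0 kb into the gene, with only 15 CpGs, was at 51.9% ± 12.7 in B cells, from 33.7 to 76.7%, and at 32.2% ± 5.45 in T cells, from 23.8 to 40%. Its difference in pooled levels was 18.1 points (adjusted p = 0.0136, quasi-binomial test, and p = 0.000777 in the exact permutation test). The annotated gene Gm26479 lies in this window too. The Tet3 window 17.5 kb into the gene, with 86 CpGs, was at 30.5% ± 7.64 in B cells, from 23.8 to 46.3%, and at 16.1% ± 4.74 in T cells, from 8.63 to 24.2%. The B and T libraries overlapped slightly in both windows. The Tet3 difference in pooled levels, 14.05 points, had a quasi-binomial adjusted p of 0.00856 and an exact permutation p of 0.000466. The annotated gene B230319C09Rik lies in the Tet3 window too.

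**Figure D1:**
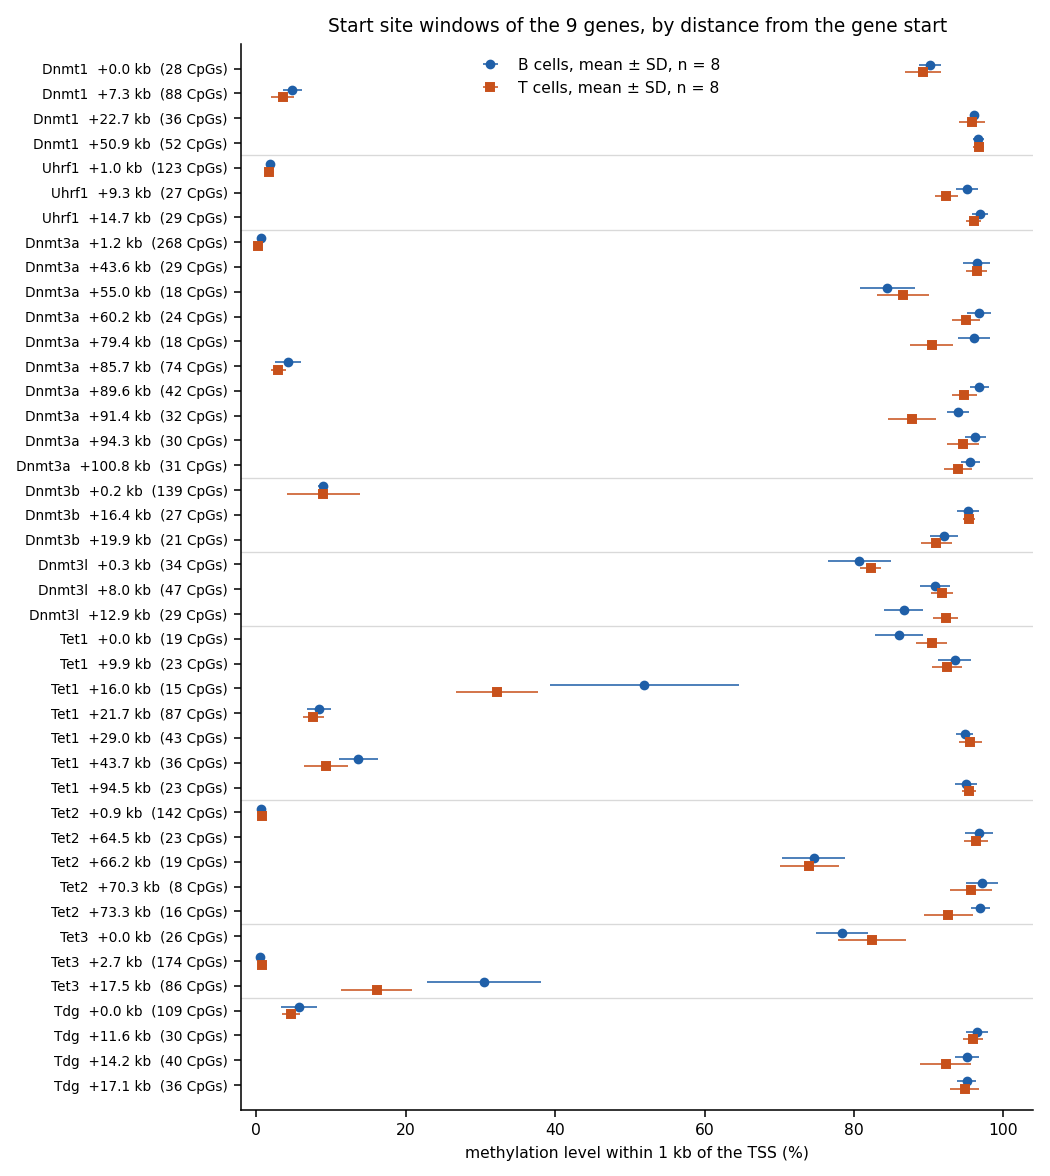
Methylation level (%) within 1 kb of the TSS for 42 groups of start sites of the 9 genes, ordered by gene and distance from the gene start, with the number of CpGs. Circles are the 8 B cell and squares the 8 T cell libraries (mean and SD). Most means lie near either end of the scale, and the cell types are farthest apart at Tet1 +16.0 kb (51.9 and 32.2%) and Tet3 +17.5 kb (30.5 and 16.1%).

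The start of that Tet3 transcript is the RefSeq promoter on the minus strand at chr6:83441629-83441928, with its 22 CpGs in capitals.
Tet3 internal promoter: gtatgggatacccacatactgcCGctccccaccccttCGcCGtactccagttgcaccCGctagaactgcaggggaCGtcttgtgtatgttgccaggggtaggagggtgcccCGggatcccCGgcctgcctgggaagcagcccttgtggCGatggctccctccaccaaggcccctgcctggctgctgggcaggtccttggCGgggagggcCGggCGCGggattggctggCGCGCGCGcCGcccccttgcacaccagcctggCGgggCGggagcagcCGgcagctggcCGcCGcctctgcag
The B cell methylation in it lay at its upstream edge. The CpG at base 38 was methylated in 43.8% of 48 B cell calls and 14.7% of 68 T cell calls, that at base 23 in 28.6% of 42 and 7.04% of 71, and that at base 41 in 20.8% of 48 and in none of 69 (which allows up to 4.35%), while over all 22 CpGs the pooled levels were 3.84% and 1.15%. Around it the T cells had a stretch of 1 kb below 10%, from 17 to 18 kb, which the B cells lacked.

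In tiles of 500 bp, B and T cells differed at several places along the genes, most of them in Tet3. Tiles are smaller and more numerous than the start-site windows and partly overlap them, so the counts called cannot be compared. Of the 885 tiles tested, 61 were called (6.89%), against 3.92% of all 1267446 tiles; 53 were higher in B cells, against 2.56% of all tiles, and 8 higher in T cells, against 1.36%. Tet3 held 31 of the 61 (18.9% of its 164 tiles), all higher in B cells. The other members together held 30 of 721 tiles, or 4.16%, which is close to the share over all genes. Dnmt3a held 13 (8 higher in B and 5 in T cells), Tet1 10 and Dnmt1 2, all higher in B cells in these last genes, Uhrf1 3, all higher in T cells, and Tet2 and Dnmt3b 1 each, higher in B cells. Dnmt3l and Tdg held none. Of the 61 called tiles, 53 lay in introns, 2 overlapped coding exons and none lay upstream of the gene start. Among the 885 tiles tested, 538 lay in introns, 180 overlapped coding exons and 65 lay upstream. The 61 tiles held a median of 6 CpGs. The B and T libraries did not overlap in 53 of them, which their choice by a difference of 20 points favours, and in 71 of all 885. The share of the tiles of all genes without overlap is not given here, so these counts cannot be set against it.

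**Figure D2:**
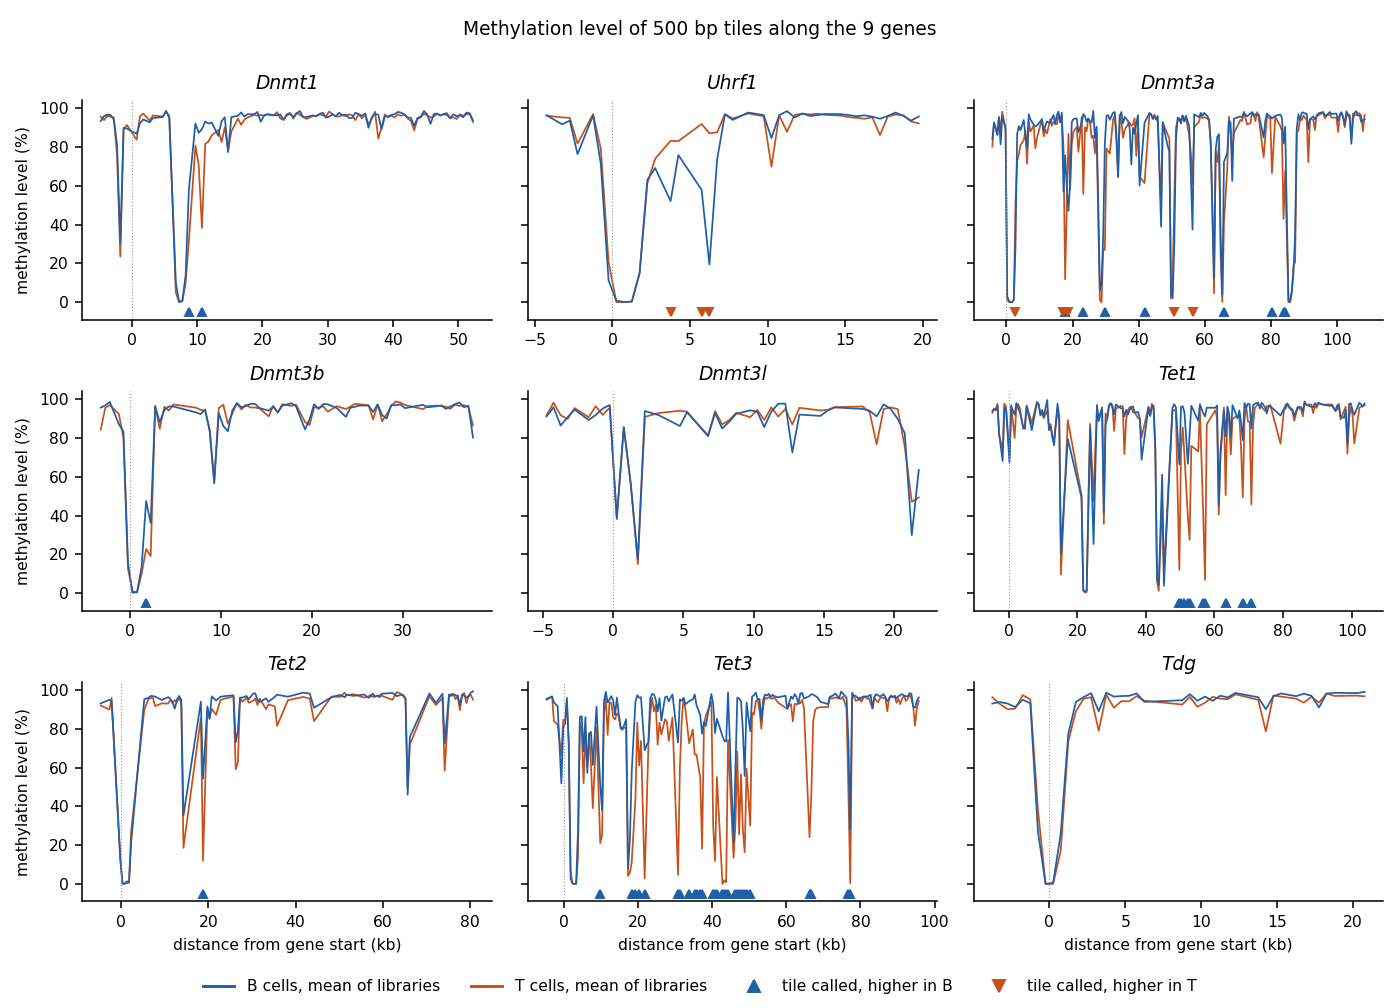
Methylation level (%) of 500 bp tiles against the distance from the gene start (kb) for the 9 genes. Lines are the means over the B cell (blue) and T cell (orange) libraries, and triangles mark the tiles called in each direction. Both lines drop to near 0 at the CpG-rich promoters, and part most often in Tet3, where 31 tiles were higher in B cells, whereas in Uhrf1 the 3 called tiles were higher in T cells.

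Tet3 (ENSMUSG00000034832.15, chr6:83362373-83459084, minus strand), whose product oxidises 5mC, was lower in T than in B cells in a series of segments between 9.5 and 77.5 kb from its start. Most of these lay between 18 and 50.5 kb and in introns. Of its called tiles 4 overlapped an exon of a non-coding transcript. The largest difference was at 42.5 kb (chr6:83416085-83416584, intron, 4 CpGs). The B cell libraries ranged from 68.6 to 87.0% there, with a median of 75.5%, and all 8 T cell libraries were at 0. None of 331 T cell calls was methylated, which allows a level of up to 0.906% by counting error alone. The quasi-binomial test gave an adjusted p of 5.4e-08 for the difference of 75.8 points, and the exact permutation test (two-sided) gave p = 0.000155, the smallest that 8 against 8 libraries allow. Libraries that separate completely always give this exact p, which is not adjusted. The largest tile of each gene was chosen in these same libraries, so for those tiles this p is no further support.

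This tile opened a run of 4 adjacent called tiles from 42.5 to 44.5 kb. Over the run's 27 CpGs the B cell libraries ranged from 71.9 to 85.4% and the T cell libraries from 6.67 to 25.9%. The longest run in the 9 genes was also in Tet3, with 7 tiles and 47 CpGs from 46.0 to 49.5 kb, where the B cell libraries ranged from 80.9 to 89.6% and the T cell libraries from 32.6 to 54.0%. A run of 3 tiles from 40 to 41.5 kb ranged from 83.3 to 93.7% and from 19.9 to 41.6%. Further on, the pair of tiles from 66.0 to 67.0 kb was almost fully methylated in B cells, at 95.9 to 98.4%, and at 20 to 43.6% in T cells. The remaining runs of Tet3, all pairs of tiles, began at 30.5, 35, 36.5 and 76.5 kb. Their B cell means were 88.2, 94.2, 82.2 and 50.9%, and their T cell means 39.9, 66.6, 38.7 and 24.3%, in the same order. In none of these runs did the B and T libraries overlap, which the choice of their tiles by a difference of 20 points in these libraries favours. By number of called tiles Tet3 ranked 160th of 20807 genes, and by their share of tested tiles 390th of the 13472 genes with at least 20 such tiles.

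The tile at 43 kb holds the most CpGs of the low stretch, and the 300 bases with 9 of its CpGs are given on the minus strand (mm10, chr6:83415697-83415996), CpGs in capitals.
Tet3 intron at 43 kb: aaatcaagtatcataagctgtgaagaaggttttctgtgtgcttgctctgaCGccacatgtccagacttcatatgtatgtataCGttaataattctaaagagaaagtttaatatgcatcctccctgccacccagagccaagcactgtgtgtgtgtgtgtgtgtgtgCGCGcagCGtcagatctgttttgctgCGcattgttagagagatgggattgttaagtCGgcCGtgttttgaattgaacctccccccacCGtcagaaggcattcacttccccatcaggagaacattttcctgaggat
Every one of these CpGs was more methylated in the pooled B cell calls than in the T cell calls. The CpG at base 51 was at 96.2% of 52 B cell calls and 2.44% of 41 T cell calls. Towards the end of the sequence the B cell level was lower, at 20% of 35 calls at base 222 and 50% of 40 at base 253, where no T cell call was methylated (of 58, which allows up to 5.17%, and of 68, which allows up to 4.41%).

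**Figure D3:**
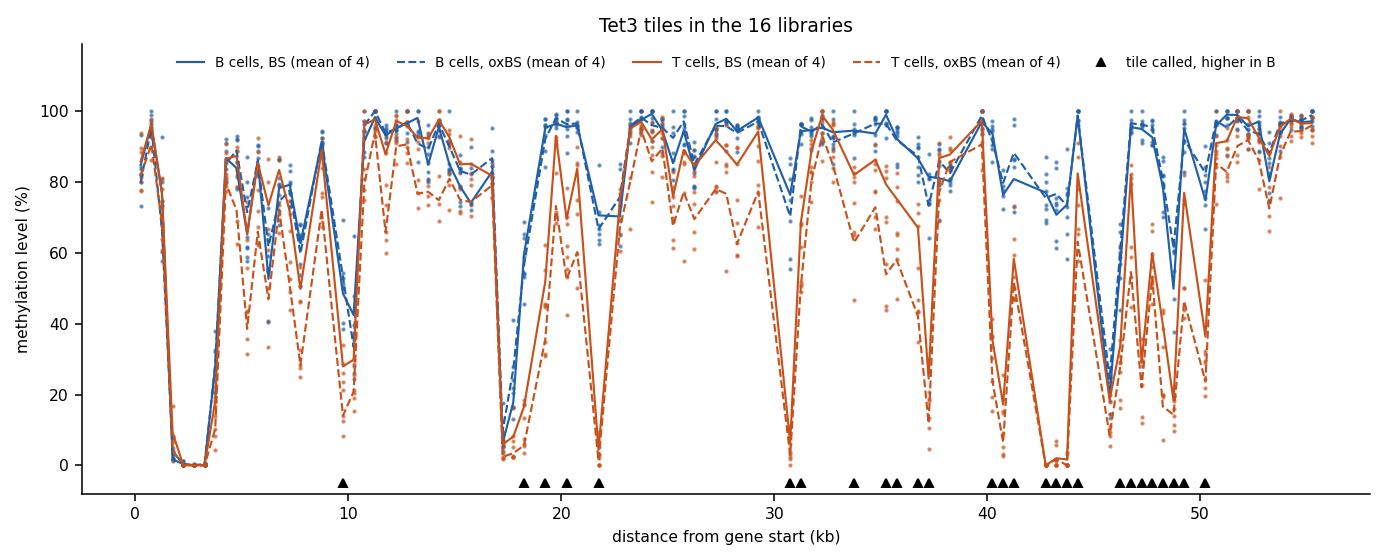
Methylation level (%) of the Tet3 tiles from 0 to 55 kb from the gene start. Points are the 16 libraries, solid and dashed lines the means of the 4 BS and 4 oxBS libraries of B cells (blue) and T cells (orange), and triangles the called tiles. The T cell libraries reach 0 at 42.5 kb while the B cell libraries stay between 68.6 and 87.0%, and the dashed T cell line lies below the solid one over much of the gene.

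Tet1, the other TET gene with several called tiles (ENSMUSG00000047146.17, chr10:62804570-62908996, minus strand), differed between 49.5 and 71 kb. The tile at 57 kb (chr10:62851497-62851996, intron, 7 CpGs) had the largest difference of all 885 tiles, 84.0 points. The B cell libraries ranged from 86.7 to 97.8% with a median of 88.9%, and the T cell libraries from 2.82 to 11.3% with a median of 6.88% (adjusted p = 1.52e-08, quasi-binomial test, and p = 0.000155 in the exact permutation test). With its neighbour it formed a run from 56.5 to 57.5 kb, at 87.8 to 95.7% in B and 6.82 to 27.4% in T cells. The other runs of Tet1 were pairs at 49.5 and 52.0 kb, and the tile at 70.5 kb overlapped a coding exon, with 84.8% ± 4.03 in B and 45.7% ± 9.43 in T cells.
Tet1 intron at 57 kb: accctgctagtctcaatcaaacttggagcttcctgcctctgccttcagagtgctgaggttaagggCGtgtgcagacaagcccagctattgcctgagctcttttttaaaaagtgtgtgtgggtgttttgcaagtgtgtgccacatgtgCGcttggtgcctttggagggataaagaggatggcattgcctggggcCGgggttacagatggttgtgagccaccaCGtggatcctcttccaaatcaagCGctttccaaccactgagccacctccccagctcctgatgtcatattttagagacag
In these 300 bases (minus strand, chr10:62851560-62851859) the 5 CpGs in capitals lay between 84.4 and 97.9% in the pooled B cell calls. In T cells the CpG at base 245 was at 6.67% of 75 calls, and over all 5 the pooled level was 1.64% of 304 calls.

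Uhrf1 (ENSMUSG00000001228.14, chr17:56303321-56323486, plus strand) was the only member whose called tiles were all higher in T cells. The tile at 6 kb (chr17:56309321-56309820, overlapping a coding exon, 12 CpGs) ranged from 12.99 to 27.96% in the B cell libraries, with a median of 19.3%, and from 82.8 to 94.3% in the T cell libraries, with a median of 86.5%. Its difference was -66.8 points as B minus T (adjusted p = 1.71e-08, quasi-binomial test, and p = 0.000155 in the exact permutation test). The tile before it, at 5.5 kb, was at 57.9% ± 8.49 and 91.9% ± 4.53, and that at 3.5 kb at 52.2% ± 14.3 (n = 7) and 83.2% ± 6.66. The stretch of the promoter below 10% ended at 1.5 kb in both cell types.
Uhrf1 at 6 kb: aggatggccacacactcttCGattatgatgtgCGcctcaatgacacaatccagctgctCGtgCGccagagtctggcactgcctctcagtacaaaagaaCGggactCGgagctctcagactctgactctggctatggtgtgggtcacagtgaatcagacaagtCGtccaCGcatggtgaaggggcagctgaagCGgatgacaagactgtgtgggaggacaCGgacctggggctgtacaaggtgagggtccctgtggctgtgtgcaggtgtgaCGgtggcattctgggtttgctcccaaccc
The sequence (plus strand, chr17:56309341-56309640) holds 11 CpGs, in capitals, each more methylated in T cells. In B cells the first CpGs held most of the methylation. The CpG at base 33 was at 66.7% of 90 B cell calls and 97.7% of 86 T cell calls, and that at base 220 at 2.70% of 74 and 63.5% of 85.

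Dnmt3a (ENSMUSG00000020661.15, chr12:3806007-3914443, plus strand), a de novo methyltransferase, had called tiles of both directions within a short distance. The tile at 17.5 kb (chr12:3823507-3824006, intron, 7 CpGs) ranged from 63.6 to 85.7% in B and from 1.54 to 21.1% in T cells, a difference of 63.4 points (adjusted p = 3.16e-06, quasi-binomial test, and p = 0.000155 in the exact permutation test). The tile at 18.5 kb (chr12:3824507-3825006, intron, 9 CpGs) went the other way, from 38.5 to 61.0% in B and from 81.4 to 93.3% in T cells, a difference of -39.3 points (adjusted p = 1.54e-05 in the quasi-binomial test). Neither tile's libraries overlapped. The 300 most CpG-rich bases of each are given on the plus strand, at chr12:3823519-3823818 and chr12:3824581-3824880, CpGs in capitals, because they lie within 1.5 kb and differ in opposite directions.
Dnmt3a at 17.5 kb: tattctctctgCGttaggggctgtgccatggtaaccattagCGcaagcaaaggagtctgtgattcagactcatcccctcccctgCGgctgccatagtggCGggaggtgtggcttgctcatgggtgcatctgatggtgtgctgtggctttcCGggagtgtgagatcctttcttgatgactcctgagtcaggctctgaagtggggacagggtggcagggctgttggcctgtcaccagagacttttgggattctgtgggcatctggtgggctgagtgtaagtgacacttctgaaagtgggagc
Dnmt3a at 18.5 kb: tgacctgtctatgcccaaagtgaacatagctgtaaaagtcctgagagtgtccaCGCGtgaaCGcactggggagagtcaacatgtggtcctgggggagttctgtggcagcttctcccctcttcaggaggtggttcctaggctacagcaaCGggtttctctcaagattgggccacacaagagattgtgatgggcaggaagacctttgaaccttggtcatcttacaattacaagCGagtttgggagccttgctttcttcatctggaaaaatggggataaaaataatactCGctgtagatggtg
In the first sequence all 5 CpGs were more methylated in B cells, between 68.5 and 82.7% against 4.11 and 15.5%. In the second the 4 CpGs at bases 54 to 149 had the widest differences. They lay between 2.44% at base 149 and 27.1% at base 56 in the B cell calls. The T cell calls were at 58.4 to 95.4%. The last, at base 287, was at 95.4% and 94.3%. Elsewhere in Dnmt3a a pair of tiles from 83.5 to 84.5 kb, just before the promoter at 85.7 kb, was at 80 to 89.8% in B and 33.8 to 63.7% in T cells.

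The other members differed at 1 or 2 places. Dnmt1 (ENSMUSG00000004099.16, chr9:20907209-20959888, minus strand) at 10.5 kb (chr9:20948889-20949388, intron, 10 CpGs) ranged from 86.0 to 92.4% in B and from 26.9 to 50% in T cells, a difference of 50.6 points (adjusted p = 2.28e-07, quasi-binomial test, and p = 0.000155 in the exact permutation test). Its other called tile, at 8.5 kb, was at 58.0% ± 5.91 (n = 7) and 31.7% ± 16.5 (n = 6). Both lie past the main promoter, whose stretch below 10% was 1.5 kb long in B and 2 kb in T cells. Tet2 (ENSMUSG00000040943.12, chr3:133463679-133545139, minus strand) at 18.5 kb (chr3:133526140-133526639, intron, 4 CpGs) ranged from 39.6 to 76.2% and from 0 to 17.9%, a difference of 40.3 points (adjusted p = 3.48e-05, quasi-binomial test, and p = 0.000155 in the exact permutation test). Dnmt3b (ENSMUSG00000027478.15, chr2:153649450-153687730, plus strand) at 1.5 kb (chr2:153650950-153651449, intron, 8 CpGs) ranged from 39.3 to 53.8% and from 12.5 to 32.0%, a difference of 24.5 points (adjusted p = 0.000148, quasi-binomial test, and p = 0.000155 in the exact permutation test). That tile bordered the Dnmt3b promoter.

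Dnmt3l (ENSMUSG00000000730.13, chr10:78041947-78063622, plus strand) and Tdg (ENSMUSG00000034674.18, chr10:82629828-82650799, plus strand) had no called tile. The largest difference of a Dnmt3l tile was -18.2 points at 21 kb, with pooled levels of 28.4% in B and 46.6% in T cells, and that of Tdg was -11.1 points at 1 kb upstream of the start (quasi-binomial adjusted p = 0.0374 and 0.139).

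**Figure D4:**
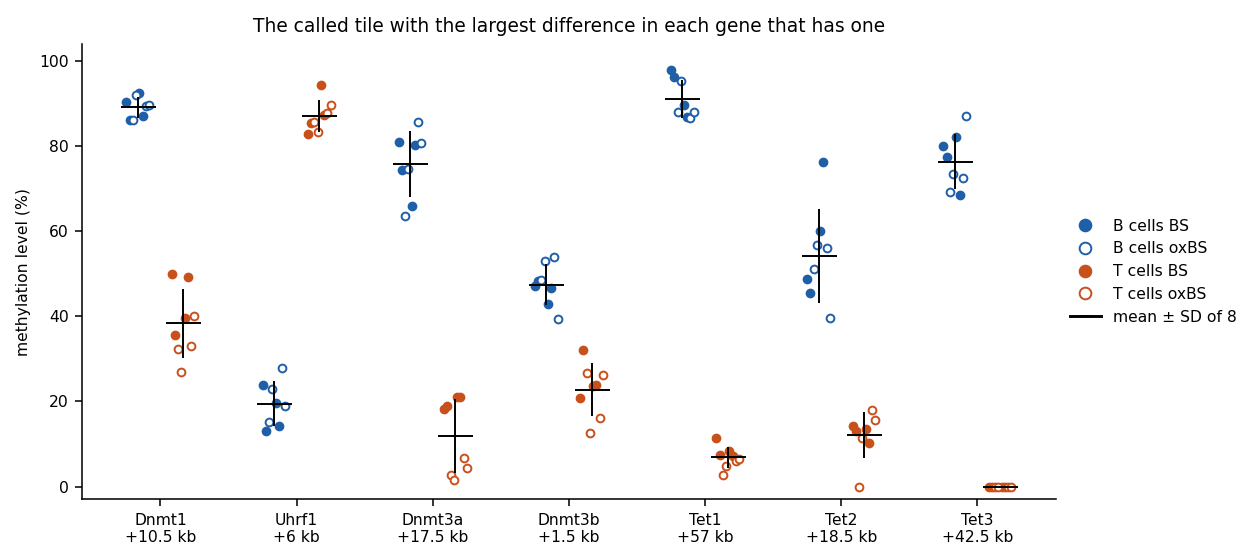
Methylation level (%) in the 16 libraries for the called tile with the largest difference in each of the 7 genes that have one, labelled by the distance from the gene start. Filled points are BS and open points oxBS libraries, and crosses give the mean and SD of 8. The B and T libraries do not overlap in any of the 7 tiles, and Uhrf1 is the only tile that is higher in T cells (87.0% against 19.5%).

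Short motifs of lymphoid transcription factors were searched on both strands of the called tiles, as letters and not as binding sites. CTTTGA (TCF/LEF) was present in 29 of the 61 called tiles (47.5%) and in 31.0% of the 1260965 tested tiles of 500 bp. GAGGAAG (PU.1) was in 13 (21.3%) against 16.9%, TGTGGT (RUNX) in 22 (36.1%) against 33.4%, and CCCNNGGG (the core of the EBF1 motif) in 11 (18.03%) against 12.2%. Over the 32276 tiles of all genes called higher in B cells CTTTGA was in 39.9%, TGTGGT in 45.7%, GAGGAAG in 19.8% and CCCNNGGG in 10.4%, and in the 53 such tiles of the 9 genes in 49.1, 37.7, 18.9 and 13.2%. Adjacent tiles of a gene are not independent, and these shares were not tested.

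Averaged over the gene body, from 1 kb after the start to the gene end, 7 of the 9 genes differed at an adjusted p under 0.05, most of them by a few points. A gene body so defined includes CpG-rich promoters that lie inside the annotated gene, as in Tet3, Tet1, Dnmt1 and Dnmt3a. For the 9 genes, gene body differences in points are of pooled levels unless means are named. Dnmt1, Dnmt3a, Tet1, Tet2, Tet3 and Tdg were higher in B cells, where 28.6% of all 19677 gene bodies were called, and Uhrf1 was higher in T cells, where 7.07% were. The median of all gene bodies was itself 0.710 points higher in B cells. Tet3 differed most, at 79.4% ± 1.74 in B cells (76.8 to 81.6%) and 67.9% ± 4.29 in T cells (63.5 to 73.3%), a difference of 11.3 points without overlap (adjusted p = 5.4e-05, quasi-binomial test, and p = 0.000155 in the exact permutation test). It lay at the 97.8th percentile of all gene bodies. The share of all gene bodies without overlap between B and T cells is not given here.

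Tet1 followed, at 78.2% ± 1.40 and 72.9% ± 2.30, again without overlap, a difference of 5.21 points (adjusted p = 0.000237, quasi-binomial test, and p = 0.000155 in the exact permutation test). Uhrf1 was at 78.0% ± 1.55 in B and 82.6% ± 2.07 in T cells, a difference of -4.58 points as B minus T (adjusted p = 0.00108, quasi-binomial test, and p = 0.000932 in the exact permutation test). The Uhrf1 libraries overlapped, as did those of the remaining called genes. In these the differences were 4.57 points in Dnmt3a, 2.96 in Tet2, 2.25 in Dnmt1 and 1.91 in Tdg, with quasi-binomial adjusted p-values of 0.0104, 0.0131, 0.00373 and 0.0014. Dnmt3b (89.3% ± 0.802 and 88.7% ± 1.06) and Dnmt3l (80.4% ± 1.76 and 80.001% ± 1.98) were not called (adjusted p = 0.397 and 0.81, quasi-binomial test).

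The differences were also taken within each assay, here between the means of libraries. Among the BS libraries alone Tet3 was 6.90 points higher in B cells and Uhrf1 differed by -5.90 points, and only these genes were called (quasi-binomial test, with 10.5% of all gene bodies). Among the oxBS libraries alone the B cell excess was 16.2 points in Tet3, 8.38 in Dnmt3a, 7.02 in Tet1, 5.35 in Tet2, 3.63 in Dnmt1, 3.37 in Tdg and 1.62 in Dnmt3b, and these 7 genes were called, with 31.2% of all gene bodies called in either direction. Of the genes not called among the BS libraries, Tet1 was at 3.48 points as B minus T, Dnmt3a at 1.16, Dnmt1 at 0.934, Tdg at 0.582, Tet2 at 0.488, Dnmt3b at -0.457 and Dnmt3l at -1.57.

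**Figure D5:**
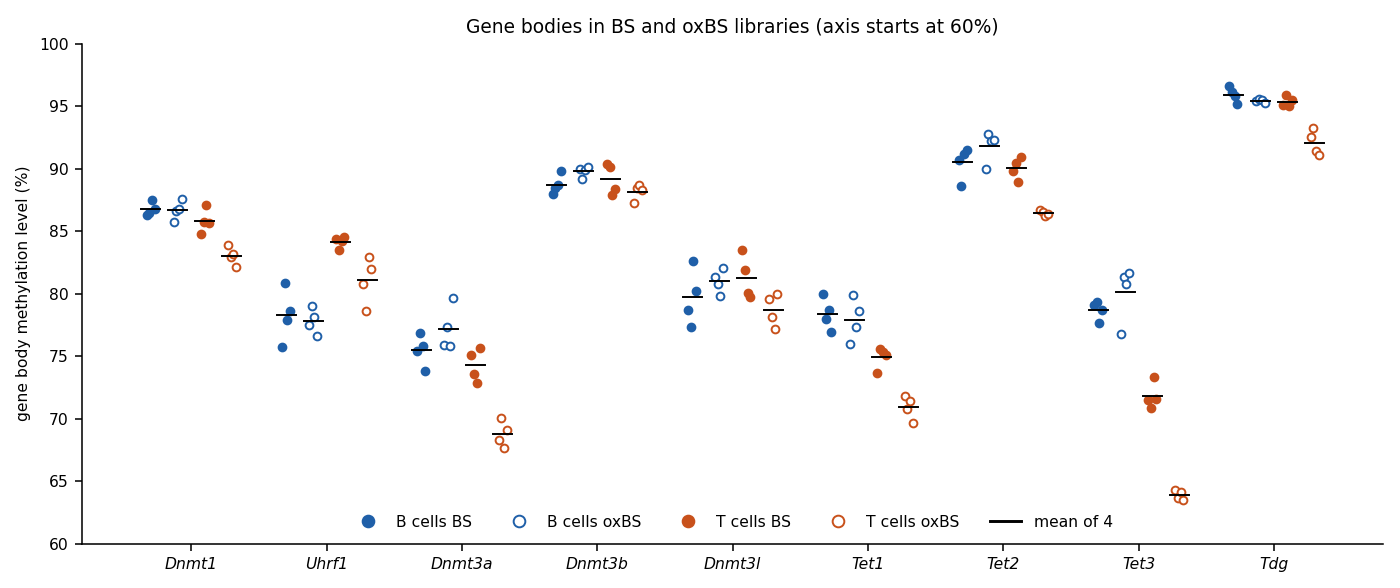
Gene body methylation level (%) of the 9 genes in each library, by cell type and assay, with the axis starting at 60%. Points are libraries and bars the means of 4. The T cell oxBS libraries lie lowest in Tet3, at 63.5 to 64.3%, below T cell BS at 70.8 to 73.3%, while in the B cells the BS and oxBS libraries of each gene overlap or lie close.

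The comparison of BS with oxBS asks how much of the BS signal is 5hmC, and in the T cells BS exceeded oxBS in most of these gene bodies. The authors' methods describe 5hmC as very low in these libraries, and their screen did not separate BS from oxBS. Conversion rates of the spiked controls were not given in the sources used here, so how much of the gap is 5hmC was not tested. Over all 16 libraries only Tdg was called, at a pooled 95.6% in BS and 93.8% in oxBS, a difference of 1.86 points (quasi-binomial adjusted p = 0.0494), against 1.24% of all gene bodies called higher in BS. That call was lost when any of the 8 T cell libraries, or any of the B cell libraries 1, 3, 10 and 11, was left out (0 gene bodies each), and leaving out the B cell libraries 4 or 9 gave 2 gene bodies. Within the T cell libraries 7 of the 9 genes were called higher in BS, against 26% of all gene bodies. Within the B cell libraries none of the 9 and none of 19659 gene bodies was called, with 404 gene bodies at an unadjusted p under 0.05.

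In the T cells the gap was widest in Tet3. The BS libraries were at 71.5, 70.8, 73.3 and 71.5% and the oxBS libraries at 64.3, 63.7, 64.2 and 63.5%, which do not overlap. The pooled difference was 7.89 points (quasi-binomial adjusted p = 0.00218), and the exact permutation test gave p = 0.0286, the smallest that 4 against 4 libraries allow. Dnmt3a followed with 5.54 points, Tet1 with 4.003, Tet2 with 3.59, Tdg with 3.29, Uhrf1 with 3.11 and Dnmt1 with 2.73, at quasi-binomial adjusted p-values between 0.00631 and 0.0391, also without overlap. In Tdg, for example, the BS libraries were at 95.1, 95.9, 95.01 and 95.5% and the oxBS libraries at 92.5, 93.2, 91.4 and 91.1%. Dnmt3l (2.58 points) and Dnmt3b (1.05 points) were not called, and their libraries overlapped. The median over all gene bodies in T cells was 1.29 points. Over all autosomal CpGs the T cell BS and oxBS libraries did not overlap either, at 79.4 to 79.6% and 78.4 to 78.9%, so the lack of overlap is not particular to these genes. The share of all gene bodies whose T cell BS and oxBS libraries do not overlap is not given here.

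In the B cells BS minus oxBS lay between -1.70 points in Dnmt3a and 0.455 in Tdg. The test of the difference between the cell types, an interaction of cell type and assay in the quasi-binomial model, was past an adjusted p of 0.05 in 5 of the 9 genes, against 17.4% of all gene bodies: Tet3 (adjusted p = 0.00369), Dnmt3a (0.0077), Tet2 (0.0156), Tdg (0.0193) and Dnmt1 (0.042). It was not in Tet1 (0.123), Dnmt3b (0.141), Uhrf1 (0.147) and Dnmt3l (0.155). Over all autosomal CpGs the B cell libraries averaged 80.1% in BS and 80.6% in oxBS, and the T cell libraries 79.5% and 78.6%.

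No single tile was called between BS and oxBS. In the quasi-binomial test 0 of the 885 member tiles and 0 of all 1267446 tiles (0%) were called, with 153 member tiles at an unadjusted p under 0.05, of which 149 were higher in BS, and 85185 of all tiles at that p. The 3 tiles with the smallest p were in Tet3 at 29 kb, in Tet1 at 53 kb and in Tet3 at 35 kb, with pooled differences of 8.56, 11.4 and 15.9 points and an adjusted p of 0.569 each. In the first the T cell BS libraries ranged from 90.2 to 96.0% and the oxBS libraries from 67.3 to 85.9%, while the B cell libraries were all at 95.6% or more.

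The gap in T cells was wider in called tiles than over all tested tiles. Its median was 12.1 points in the 53 member tiles higher in B cells, 6.94 in the 8 higher in T cells and 3.14 over all 885. Over the 31 called tiles of Tet3 the T cell libraries averaged 44.3% in BS and 27.5% in oxBS, 16.8 points apart, and over its 133 other tested tiles 77.0% and 71.1%, 5.94 points apart. In the B cells these gaps were -0.118 and -1.78 points. Over the 10 called tiles of Tet1 the T cell gap was 11.8 points, against 3.32 in its other tiles, and over the 8 Dnmt3a tiles higher in B cells it was 11.6, against 4.59. The same was so over all genes, with 10.2 points in 32393 tiles called higher in B cells and 0.977 in the tiles not called. These gaps are descriptions, since the tiles were called on the same libraries.

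Of 39 other genes of the pathway (readers, partners, repair and deamination, TET partners, methyl donor and Gadd45 genes), 11 gene bodies were higher in B and 7 in T cells, with a median difference of 0.788 points. Over all gene bodies 28.6% and 7.07% were called and the median was 0.710 points. Mbd2, a reader of methylated CpGs, differed most, at 90.1% ± 0.850 in B and 72.3% ± 6.33 in T cells (17.4 points, quasi-binomial adjusted p = 7.8e-07). It was followed by Idh2, which makes the co-substrate of the TET enzymes (8.35 points), Cdca7, a partner of the remodeller Hells (7.61), the methyl donor genes Mat2a (6.59) and Mat2b (6.55), and Usp7 (5.17). Xrcc1, a scaffold of base excision repair, was higher in T cells, at 77.2% ± 1.69 and 89.6% ± 1.41 (-12.3 points as B minus T, quasi-binomial adjusted p = 4.35e-07). Mbd4, a glycosylase that reads methylated CpGs (-11.1), the deaminase gene Apobec1 (-8.39) and Cxxc5 (-7.17) were also higher in T cells.

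At start sites 13 of 267 windows of these genes were called, 12 of them higher in T cells, against 1.82% of all windows. Windows of 1 gene overlap each other, and the 13 lie in 5 genes. Mbd4 had the widest, a window of 24 CpGs at 19.99% ± 4.83 in B and 58.0% ± 7.49 in T cells (-37.9 points, quasi-binomial adjusted p = 9.49e-06). Windows of Xrcc1 (-31.7 points at most), Apobec1 (-29.2) and Zbtb38 (-23.7) were also higher in T cells, and a window of Usp7 was higher in B cells (24.5 points). Of the 1599 tested tiles of the pathway 60 were called higher in B and 58 in T cells, 7.38% in all, against 2.56%, 1.36% and 3.92% of all tiles. Mbd2 was also the only one of the 39 gene bodies called between BS and oxBS over all libraries, at 83.7% and 78.7% (adjusted p = 0.0494, quasi-binomial test). Of all gene bodies 1.24% were called higher in BS. Whether the Mbd2 call held when single libraries were left out is not given here.

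Across the 16 libraries, the gene bodies whose levels ran most closely with that of Tet3 were Znrf1 (Pearson r = 0.989) and Gimap8 (r = 0.988), of 19565 genes compared. The libraries form separate B and T clusters, and the difference between them enters these values, 26.2 points in Znrf1 and 22.6 in Gimap8. Within the 8 T cell libraries, where BS and oxBS differ, r was 0.993 and 0.992, and within the 8 B cell libraries 0.721 and 0.714.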

How the data were processed

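CpG methylation was measured by whole-genome sequencing in 16 libraries. According to the submitters' notes the authors trimmed reads with Trim Galore 0.6.0 and aligned them to mm10 with Bismark 0.20.0 and SAMtools 1.3.1, and their methods state a filter on mapping quality. The deposited files give counts of unmethylated and methylated calls per CpG, both strands combined, not normalized. CpGs without a call are not listed, and positions that are no reference CpG were left out (43070 to 59226 per library). Conversion rates of the spiked controls were not given in the sources used here.

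Counts were summed over tiles, windows within 1 kb of each GENCODE vM21 TSS, and gene bodies, on autosomes, with NumPy 2.4.6 and Numba 0.67.0 under Python 3.11.15. Libraries with fewer than 20 calls in a region, and regions with fewer than 3 CpGs or 5 libraries per cell type, were left out. Levels were compared in a quasi-binomial logistic model whose covariates were sex and assay (or sex and cell type), by an F test with the dispersion not below 1, and p-values were adjusted by Benjamini-Hochberg over all protein-coding genes. The model was run on simulated data with independent libraries, which cannot show how it behaves where libraries share DNA. Single values were compared by an exact two-sided permutation test over libraries. Gene bodies needed an adjusted p under 0.05, tiles and windows also 20 points between cell types. No library pair was a duplicate: 5.37 to 7.25% of CpGs on chromosome 19 covered in both had equal calls. Intervals and limits cover counting error only, and p-values measure the spread between libraries, which may be technical.

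All members are named with their windows and gene bodies, the called tile with the largest difference and each run of called tiles; of the pathway list, at most 10 called genes each. The members and lists were chosen with earlier results of these data known. Alternatives were the call minimum, the dispersion floor, covariates, CpG coverage, libraries of either sex, assay or cell type alone, other limits, window and tile sizes, and leaving out each library. The B cell markers were counted over 5 genes, chosen with their values known, and the full list is not reported here.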

Additional observations from a re-analysis of the deposited data

Results flagged for a closer look

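In the Tet2 tile at 18.5 kb the oxBS library 14 of the T cells stood apart from the other 7, at 0% of 56 calls, which allows a level of up to 5.36%, while the others ranged from 10.3 to 17.9%. Among 32 groups of libraries examined this was the only such case, and about 1 in 20 groups is singled out by chance.

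BS minus oxBS differed between B and T cells in 5 gene bodies, against 17.4% of all gene bodies. The interaction term had a quasi-binomial adjusted p of 0.00369 in Tet3, 0.0077 in Dnmt3a, 0.0156 in Tet2, 0.0193 in Tdg and 0.042 in Dnmt1. In each of them BS was above oxBS in the T cells, by 7.89, 5.54, 3.59, 3.29 and 2.73 points. In the B cells the differences were -1.34, -1.70, -1.13, 0.455 and 0.138 points.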

How the results depend on the processing

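The count of 61 called tiles fell to 34 with a minimum of 40 calls, to 22 in the male and 22 in the female libraries, to 24 with BS and 39 with oxBS libraries alone, to 40 with tiles of 1000 bp and to 39 at 30 points, and rose to 111 at 10 points. The share of all tiles called, 3.92% at first, was then 3.94, 1.36, 1.41, 1.36, 2.08, 3.26, 2.26 and 6.74%, in the same order. Leaving out single libraries gave 57 to 65 tiles, 0 to 1 start-site windows, 7 gene bodies between B and T cells each time and 0 to 2 between BS and oxBS. At 10 points 4 windows were called, with 4.59% of all windows. The 7 gene bodies called between B and T cells became 1 in the male libraries (Uhrf1), 2 in the female libraries (Tet3 and Tdg), 2 with BS libraries alone (Tet3 and Uhrf1) and 2 at 5 points (Tet3 and Tet1), with 4 against 4 libraries in these subsets and 8.55, 11.1 and 10.5% of all gene bodies called in the first 3, and 9.91% at 5 points. The mean differences were of like size in males and females in Tet3 (11.6 and 11.6 points), Tet1 (5.02 and 5.48) and Dnmt3a (4.92 and 4.62), and were -5.60 and -3.55 in Uhrf1. The 1 gene body called between BS and oxBS became 7 in the T cell libraries and 0 in the B cell, male or female libraries, without covariates, or with CpGs of at least 5 calls only.

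Between B and T cells, signs turned only in gene bodies that were not called, those of Dnmt3b and Dnmt3l. As B minus T of pooled levels, Dnmt3b was at -0.0585 points in the female and -0.431 in the BS libraries, and Dnmt3l at -1.08 and -1.49. When single libraries were left out, Dnmt3l ranged from -0.00599 to 0.877. Relative to the median of all gene bodies, an alternative added after seeing the data, they were at -0.107 and -0.333. As BS minus oxBS, Dnmt3b was at -0.465 in the male libraries, -0.131 with CpGs of at least 5 calls and from -0.167 to 0.25 without single libraries. In the B cell libraries BS minus oxBS was -0.968 in Dnmt3b, -1.13 in Tet2, -1.34 in Tet3, -1.20 in Dnmt3l and -1.70 in Dnmt3a. None of these was called in the B cell libraries, whereas Tet2, Tet3 and Dnmt3a were called higher in BS in the T cell libraries. The causes were not tested. The largest called tile of the 7 genes that held one kept its direction under every alternative that gave it a value. The B and T libraries did not overlap in these tiles, so subsets of libraries could not turn it, and this is no further support. Those of Dnmt3b and Tet2 were not called in some of the subsets. The called tiles had a median of 50 calls per library, and the size of difference that this depth can show was not tested. No paired analysis was possible because the labels number the 16 libraries without shared numbers.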
